A study of Mus musculus with 12 samples.

Results

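The desaturases Fads1, Fads2, Fads3, Fads6 and Scd2 and the elongases Elovl1, Elovl2, Elovl3 and Elovl5 were followed in mouse liver after knockdown of the long noncoding RNA mGULL. They were chosen from the Fads, Elovl and Scd families by gene name, leaving aside Fads2b, Elovl4, Elovl6, Elovl7, Scd1, Scd3 and Scd4. These 9 genes are 9 of the 55385 features in the expression table, and all 9 were among the 16378 genes with a mean level of 1 TPM or more that were tested (TPM is transcripts normalised for length and scaled to 1000000 per mouse).

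RNA-Seq was performed on livers of 12 male C57BL/6 mice, 4 in each of 3 groups, that were injected with adenovirus at 7 weeks of age and killed 7 days later. Ad-Ctrl mice received a Lac virus with the pAdV5 virus, Ad-shmGULL mice a short hairpin RNA virus against mGULL with pAdV5, and Ad-shmGULL+hGULL mice the hairpin virus with a virus expressing the human transcript hGULL. Each mouse received 500000000 plaque-forming units in total, so that the groups differ in which viruses made up the same dose. The design asks whether losing mGULL alters liver transcripts and whether the human transcript returns them to the control level. The authors list several hairpins against mGULL without naming which was used in these mice, and give more than a single route of injection. No feature of the expression table was matched to mGULL, so the knockdown could not be checked in these values and the group names rest on the labels. The authors describe a qPCR check of both transcripts in mice infected with adenovirus, which was not analysed here.

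TPM values keep no sequencing depth, so the precision of each gene is given by the spread between the 4 mice of a group. All 7 hepatocyte markers were above 0 in every mouse, with Alb the most abundant, and their sum was 91688 ± 15246 TPM in Ad-Ctrl, 88494 ± 5661 in Ad-shmGULL and 77733 ± 5446 in Ad-shmGULL+hGULL (mean ± SD, n = 4). The sum hides members that differed both ways, 3 being higher and 4 lower in Ad-shmGULL than in Ad-Ctrl by log2 fold change. From Ad-Ctrl to Ad-shmGULL the means were 13766 and 9160 TPM for Apoa1, 3319 and 2416 TPM for Cps1, and 1911 and 3246 TPM for Cyp3a11. All 37 mitochondrially encoded features were listed at 0 in every mouse, so a listed 0 in this table need not mean an absent transcript.

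Mammals make long-chain polyunsaturated fatty acids such as arachidonic and docosahexaenoic acid from dietary linoleic and alpha-linolenic acid, by desaturation and elongation in the endoplasmic reticulum and a final shortening in the peroxisome. Fads2 introduces the initial double bond, Elovl5 and Elovl2 lengthen the chain, and Fads1 introduces a later double bond. The liver is a main site of this synthesis, and the transcription factors SREBP-1 and PPAR-alpha are known regulators of Fads1, Fads2 and Elovl5.

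Fads1, Fads2 and Fads3 lie side by side within 156 kb of chromosome 19 in GRCm38.p6, the build used by the authors, with Fads3 at chr19:10040855-10060113, Fads2 at chr19:10062765-10101503 and Fads1 at chr19:10182877-10196874. Scd2 (chr19:44293676-44306864) and Elovl3 (chr19:46131897-46135694) lie farther along the same chromosome. Elovl1 lies on chromosome 4 (118426874 to 118432953), Elovl5 on chromosome 9 (77917365 to 77984519), Fads6 on chromosome 11 (115278626 to 115297731) and Elovl2 on chromosome 13 (41182382 to 41220403).

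RefSeq promoter sequences of GRCm38.p6 were at hand for 6 of the 9 genes and for Elovl6. The table had no entry for Fads1, Elovl3 and Scd2. The 250 bases before the annotated start are printed for Fads2 (chr19:10101504-10101753, minus strand) and Elovl5 (chr9:77917115-77917364, plus strand), whose levels are described in most detail, and for Elovl6 (chr3:129532136-129532385, plus strand), the elongase used for comparison. Each is printed in the direction of its gene. Capitals mark matches to 5 motifs searched on both strands. These were the sterol regulatory element TCACNCCAC, the E-box CACGTG, the CCAAT box CCAAT, the GC box GGGCGG and the nuclear receptor core element AGGTCA.
Fads2: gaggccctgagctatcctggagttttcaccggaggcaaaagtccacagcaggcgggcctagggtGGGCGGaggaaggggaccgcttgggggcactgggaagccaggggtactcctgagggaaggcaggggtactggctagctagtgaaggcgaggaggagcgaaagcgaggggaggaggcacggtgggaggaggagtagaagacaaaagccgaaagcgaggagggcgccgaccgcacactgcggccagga
Elovl5: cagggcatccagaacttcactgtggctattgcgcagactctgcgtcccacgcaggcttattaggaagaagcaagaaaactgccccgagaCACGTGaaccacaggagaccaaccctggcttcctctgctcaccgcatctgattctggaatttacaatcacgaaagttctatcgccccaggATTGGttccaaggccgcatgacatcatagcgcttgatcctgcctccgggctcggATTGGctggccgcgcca
Elovl6: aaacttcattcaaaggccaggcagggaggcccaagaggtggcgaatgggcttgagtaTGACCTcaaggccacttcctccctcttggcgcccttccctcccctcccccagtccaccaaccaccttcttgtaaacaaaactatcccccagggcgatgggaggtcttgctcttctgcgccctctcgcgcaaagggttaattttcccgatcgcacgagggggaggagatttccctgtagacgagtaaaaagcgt
The Fads2 window held a GC box on the printed strand, 186 to 181 bases before the start. The Elovl5 window held an E-box 161 to 156 bases before the start, which reads alike on both strands, and CCAAT on the reverse strand at 71 to 67 and at 17 to 13 bases before it. The Elovl6 window held the receptor element on the reverse strand, 193 to 188 bases before the start. The E-box occurs in 6.02% of the 32851 promoter windows of the table, CCAAT in 33.8%, the GC box in 32.7%, the receptor element in 14.0% and TCACNCCAC in 1.05%. No match to TCACNCCAC lay in the windows of these genes. Among the windows not printed, that of Fads3 held 2 CCAAT and 2 GC boxes, that of Fads6 held 1 GC box and 2 receptor elements, and 1 of 2 Elovl2 windows held 5 GC boxes. The 2 Elovl1 windows held 5 and 2 GC boxes, with a CCAAT in the former and a receptor element in the latter. A match describes these letters and shows no binding.

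In control liver the 9 transcripts spanned levels from 448 ± 24.8 TPM for Fads2 to 2.42 ± 0.418 TPM for Fads3 (mean ± SD, n = 4). Between them came Elovl2 at 322 ± 37.2 TPM, Elovl5 at 192 ± 34.4 TPM, Fads1 at 174 ± 11.5 TPM, Elovl3 at 163 ± 40.9 TPM, Fads6 at 77.6 ± 1.61 TPM, Elovl1 at 36.3 ± 4.54 TPM and Scd2 at 6.91 ± 2.69 TPM. The ranges of Elovl5 and Fads1 overlapped, as did those of Fads1 and Elovl3, so the order of these 3 is not set beyond the spread between mice. Every other neighbouring pair in that order had ranges that did not overlap in the control mice. In Ad-shmGULL livers Elovl5 (336 ± 114 TPM) had a higher mean than Elovl2 (298 ± 53.3 TPM), but it was the higher of the pair in 2 of 4 mice. In Ad-shmGULL+hGULL livers Elovl2 was above Elovl5 in 4 of 4 mice, at 356 ± 36.5 against 277 ± 68.9 TPM, although their ranges overlapped. Summed over the 9 genes, the level was 1423 ± 110.2 TPM in Ad-Ctrl, 1715 ± 261 TPM in Ad-shmGULL and 1710.0 ± 191 TPM in Ad-shmGULL+hGULL, with overlapping ranges.

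**Figure D1:**
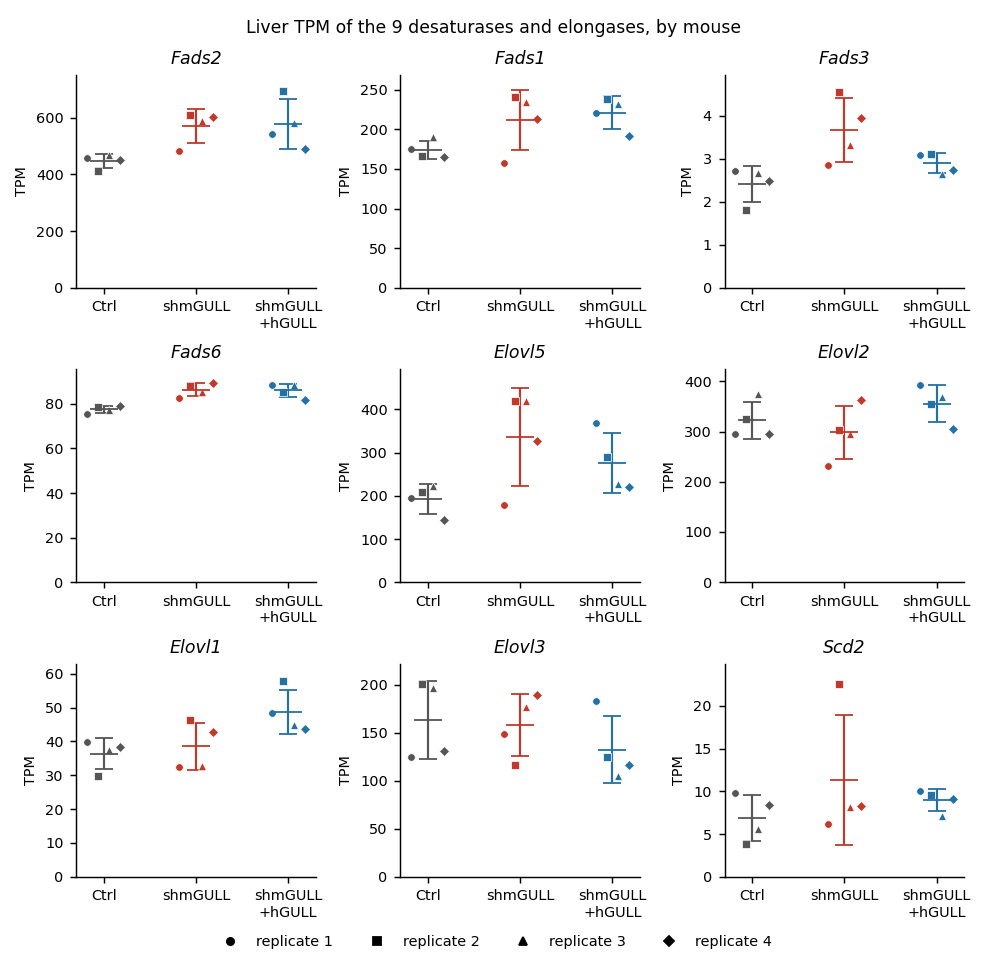
Liver TPM (linear axis from 0) of each of the 9 genes in Ad-Ctrl (grey), Ad-shmGULL (red) and Ad-shmGULL+hGULL (blue) mice, with a symbol for each mouse and lines for the mean ± SD (n = 4). The Fads2 mice of Ad-shmGULL lie between 483 and 611 TPM, all above the control mice at 412 to 468 TPM.

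Knockdown was compared with control with limma on log2(TPM + 1), fitted over all tested genes and adjusted by the Benjamini-Hochberg method, so fold changes are on that scale and understate those of low genes. At an adjusted p under 0.05, 0 of the 9 genes were called, where 529 of all 16378 genes (3.23%) were. At an unadjusted p under 0.05 the count was 4 of 9, against 20.2% of all genes. At the study's own threshold, which asks for a log2 fold change larger than 0.5 in size and P below 0.05 before adjustment, it was 1 of 9 (Elovl5), against 7.65% of all genes. In 3 of 9 genes the 4 knockdown mice all lay above the 4 control mice, against 6.93% of all genes. These were Fads2, Fads3 and Fads6. After median-of-ratios scaling this held in 2 of 9 (Fads2 and Fads3), against 4.61% of all genes. The log2 fold change was above 0 in 7 of 9 genes, against 65.5% of all genes. It was above 0 in 6 of the 9 after median-of-ratios scaling, which turned Elovl1 from 0.07 to -0.03. The median over the 9 genes was 0.26, against 0.09 over all genes, and was 0.15 after that scaling, against -0.0092 over all genes. Of all calls, 399 were higher and 130 lower in knockdown, and with that scaling 332 were higher and 351 lower.

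Fads2, the desaturase at the entry of the pathway, measured 460, 412, 468 and 452 TPM in the control mice (replicates 1 to 4) and 483, 611, 590 and 601 TPM in the knockdown mice. All knockdown mice were above all controls, with replicate 1 closest to them. The mean was 1.28 times that of control, a log2 fold change of 0.35 (SE 0.11, 95% interval 0.10 to 0.59), which missed the threshold (limma adjusted p = 0.108). After median-of-ratios scaling the knockdown mice still lay above all controls, as in 4.61% of all genes, and the log2 fold change was 0.24.

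Fads1, the later desaturase, measured 175, 166, 190 and 166 TPM in control mice and 158, 241, 235 and 213 TPM in knockdown mice. In 3 knockdown mice it was above every control, and in replicate 1 it was below every control. The log2 fold change was 0.26 (SE 0.13, 95% interval -0.0097 to 0.53, limma adjusted p = 0.264), or 0.15 after median-of-ratios scaling.

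Elovl5, which lengthens the products of Fads2, had the largest log2 fold change of the 9 genes. It measured 194, 209, 222 and 143 TPM in control mice and 178, 420, 419 and 327 TPM in knockdown mice. Knockdown replicate 1 lay among the controls and the others above them. The knockdown mean was 1.75 times the control mean, and the log2 fold change was 0.75 (SE 0.26, 95% interval 0.18 to 1.31), with an unadjusted p of 0.0134 and an adjusted p of 0.128 in limma. Without Ad-shmGULL replicate 1, Elovl5 (log2 fold change 1.02, limma adjusted p = 0.0257) and Fads1 (0.40, limma adjusted p = 0.0435) passed the threshold and Fads3 passed that of the study, where 2.45% of all genes were called. Over all alternative settings the limma adjusted p ranged from 0.0257 to 0.278 for Elovl5 and from 0.0435 to 0.481 for Fads1.

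Elovl2, which acts after Elovl5 on the longer chains, measured 295, 325, 374 and 296 TPM in control mice and 232, 303, 296 and 362 TPM in knockdown mice. The groups overlapped, and the log2 fold change was -0.12 (SE 0.13, 95% interval -0.41 to 0.16, limma adjusted p = 0.653). It was -0.23 after median-of-ratios scaling, and between -0.22 (without Ad-shmGULL replicate 4) and -0.00879 (without Ad-shmGULL replicate 1) on leaving out 1 mouse. The ratio of Elovl5 to Elovl2 within a mouse, a measure chosen after the values were seen, was 0.595 ± 0.0786 in control mice, 1.12 ± 0.331 in knockdown mice and 0.773 ± 0.139 in rescue mice (mean ± SD, n = 4). It was higher in every knockdown mouse than in any control, a log2 difference of 0.87, given without p because of that choice. The corresponding ratio of Fads2 to Fads1 was 2.57 ± 0.129 in control mice, 2.73 ± 0.263 in knockdown mice and 2.61 ± 0.208 in rescue mice (n = 4). Its log2 difference between knockdown and control was 0.08.

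Among the remaining desaturases, Fads3, an enzyme acting on sphingoid bases, measured 2.73, 1.81, 2.66 and 2.48 TPM in control mice and 2.85, 4.55, 3.33 and 3.96 TPM in knockdown mice. All knockdown mice were above all controls, at levels low enough that the log2 fold change of 0.44 (SE 0.14, limma adjusted p = 0.104) depended on the pseudocount, being 0.58 with a pseudocount of 0.1. Fads6 was the steadiest of the 9 genes, at 75.5 to 79.0 TPM in control mice and 82.6 to 89.5 TPM in knockdown mice. Its log2 fold change was 0.15 (SE 0.06, limma adjusted p = 0.167), and after median-of-ratios scaling it was 0.04 and the groups overlapped. Scd2, a stearoyl-CoA desaturase related to Scd1, measured 9.81, 3.86, 5.58 and 8.40 TPM in control mice and 6.12, 22.6, 8.16 and 8.25 TPM in knockdown mice. The mean of the knockdown group was raised by replicate 2, and the log2 fold change was 0.53 (SE 0.33, limma adjusted p = 0.404), or 0.16 without that mouse.

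Scd2 transcripts share 145 of their 8133 distinct 50-base words (1.78%) with Scd1 transcripts in the GENCODE vM39 set. The authors counted with an earlier GENCODE release. Reads from such shared stretches can fit either gene, and how they were counted is not known here. Scd1 was at 3234 ± 682 TPM in control mice, so the low Scd2 level is uncertain on that account. Fads2 shared 5 of 7839 words with Fads3, and Fads1 shared 0 of 7191 with Fads2.

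Elovl1 and Elovl3 had no detectable difference between knockdown and control. Elovl1, which makes very long saturated chains, ranged from 29.7 to 39.9 TPM in control mice and from 32.4 to 46.2 TPM in knockdown mice, with a log2 fold change of 0.07 (95% interval -0.22 to 0.37) that turned to -0.03 after median-of-ratios scaling. Elovl3, known for its sex- and clock-dependent expression in liver, ranged from 125 to 201 TPM and from 117 to 189 TPM in these groups, with a log2 fold change of -0.04 (95% interval -0.50 to 0.42). These intervals are wide enough that a modest change in either gene was not detectable.

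Rescue was then compared with knockdown, to ask whether hGULL moved the genes away from the knockdown level. With limma, 0 of 9 genes and 0 of all 16378 genes (0%) had an adjusted p under 0.05. At an unadjusted p under 0.05 there was 1 of 9 (Elovl1), against 10.7% of all genes. At the study's threshold there were 0 of 9, against 3%. The 4 rescue mice lay wholly above the knockdown mice in 0 of 9 genes, against 5.4% of all genes, and wholly below in 0 of 9, against 0.983%. After median-of-ratios scaling all rescue mice lay below all knockdown mice for Fads3, against 2.44% of all genes. The median log2 fold change was -0.0059 over the 9 genes and 0.09 over all genes. The fold change was above 0 in 4 of 9 genes, against 70.9% of all genes. It was above 0 in 2 of the 9 after median-of-ratios scaling, which turned Fads1 and Fads2 below 0.

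Fads2 measured 544, 696, 580.4 and 490.1 TPM in the rescue mice and Fads1 measured 221, 239, 232 and 192 TPM. Both overlapped the knockdown range, with replicate 2 highest and replicate 4 lowest in each gene. The log2 fold change of rescue minus knockdown was 0.01 for Fads2 (95% interval -0.23 to 0.26) and 0.08 for Fads1 (-0.19 to 0.35), and both changed sign after median-of-ratios scaling (-0.08 and -0.02). Elovl5 measured 368, 291, 227 and 220.3 TPM in rescue mice, between the means of the other groups in replicates 2 to 4 and above the knockdown mean in replicate 1. Its log2 fold change was -0.23 (SE 0.26, 95% interval -0.80 to 0.33, limma adjusted p = 0.737), or -0.33 after median-of-ratios scaling. On leaving out 1 mouse it lay between -0.101 (without Ad-shmGULL replicate 2) and -0.512 (without Ad-shmGULL replicate 1), and without the latter mouse it passed the threshold of the study but not the adjusted one (limma adjusted p = 0.641).

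Elovl1 measured 48.5, 58.0, 44.8 and 43.5 TPM in rescue mice, and 32.4, 46.2, 32.8 and 42.7 TPM in knockdown mice. Rescue mice were higher on average, with overlap through knockdown replicate 2, and the log2 fold change was 0.34 (SE 0.14, limma unadjusted p = 0.0292 and adjusted p = 0.422). Elovl2 (0.27) differed in the same direction, and Elovl3 (-0.26), Fads3 (-0.25) and Scd2 (-0.14) in the other, each with a limma adjusted p of 0.490 or more. The Scd2 difference was 0.23 without Ad-shmGULL replicate 2.

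The rescue group was last compared with control, a comparison that shares its control mice with the knockdown comparison and its rescue mice with the preceding contrast. The median log2 fold change over all genes was 0.17 in deposited TPM and -0.0055 after median-of-ratios scaling, so that changes are given here also relative to that median. At an adjusted p under 0.05, 0 of 9 genes were called by limma, against 2.15% of all genes. At an unadjusted p under 0.05 there were 4 of 9 (Fads1, Fads2, Fads6 and Elovl1), against 25.3% of all genes, and at the study's threshold 0 of 9 against 7.49%. In the same 4 genes all rescue mice were above all control mice, against 21.4% of all genes. After median-of-ratios scaling this held for Elovl1 alone, against 6.00% of all genes.

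The log2 fold change of rescue minus control was 0.36 for Fads2 (SE 0.11, limma adjusted p = 0.0927) and 0.34 for Fads1 (SE 0.13, limma adjusted p = 0.130), or 0.18 and 0.17 above the median gene. With only these 2 groups in the model, Fads1 passed the threshold (limma adjusted p = 0.0387), as did 10.3% of all genes, and its adjusted p ranged from 0.0387 to 0.622 over all alternatives. It also passed without Ad-shmGULL replicate 1 (limma adjusted p = 0.0434, with 5.23% of all genes called), which is in neither group and leaves the fold change as it was. Elovl1 was at 0.41 (SE 0.14, limma adjusted p = 0.102), or 0.24 above the median gene. Elovl5 was at 0.51 (SE 0.26, limma adjusted p = 0.235), or 0.34 above it. Fads6 (0.15) and Elovl2 (0.14) were 0.03 below the median gene and turned negative after median-of-ratios scaling (-0.06 for each). Elovl3 was at -0.30, with rescue mice at 183, 125, 106 and 116 TPM, of which replicate 1 was within the control range and the others below it. Fads3 (0.20, limma adjusted p = 0.398) was 0.02 above the median gene and Scd2 (0.39, limma adjusted p = 0.474) was 0.22 above it.

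**Figure D2:**
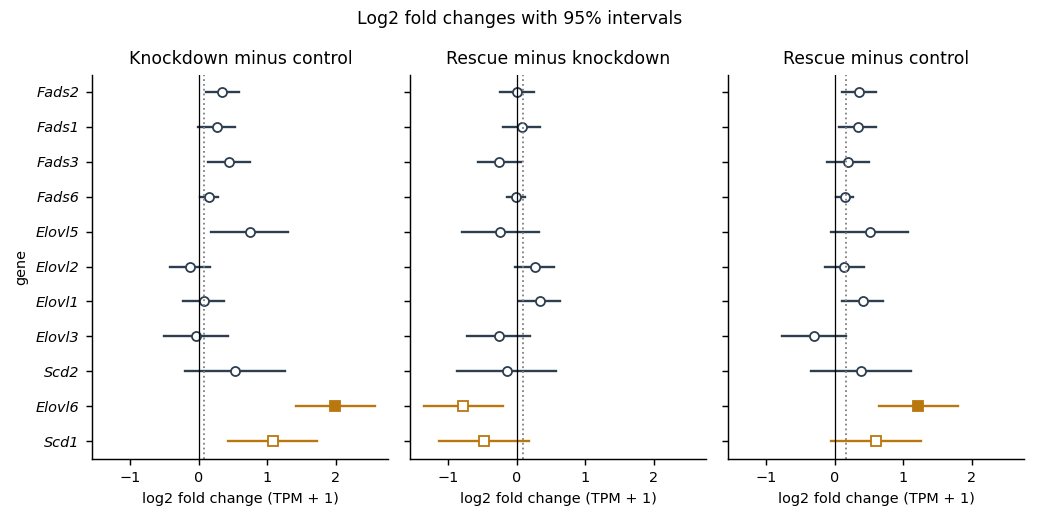
Log2 fold changes of TPM + 1 (points) with 95% intervals (lines) for the 9 genes (circles) and for Elovl6 and Scd1 (squares) in the 3 comparisons, where filled symbols mark a limma adjusted p under 0.05 and the dotted line the median of all tested genes. Elovl6 is the only gene drawn with filled symbols, at 1.99 in knockdown minus control and 1.22 in rescue minus control, while Elovl5 is the farthest right of the 9 genes in knockdown minus control at 0.75.

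Elovl6, the elongase of palmitate that was left out of the 9 genes, gave a scale for these differences. It measured 54.2, 49.3, 50.9 and 55.0 TPM in control mice, 142, 422, 187 and 176 TPM in knockdown mice and 115, 167, 106 and 114 TPM in rescue mice. All knockdown and all rescue mice were above all controls. It rose with knockdown (log2 fold change 1.99, limma adjusted p = 0.00677) and was higher in rescue than in control (1.22, limma adjusted p = 0.0426). The knockdown call held in all 20 alternative settings. The rescue minus control call was lost with median-of-ratios scaling (limma adjusted p = 0.109), with quantile normalization, with the protein-coding total and without a filter, and also without any of Ad-Ctrl replicates 2, 3 and 4, Ad-shmGULL replicate 4 and each rescue mouse (limma adjusted p 0.0554 to 0.142). Rescue minus knockdown was -0.77 (limma unadjusted p = 0.0125 and adjusted p = 0.399), which passes the threshold of the study. After median-of-ratios scaling all rescue mice lay below all knockdown mice for Elovl6, and the log2 fold change was -0.87 (limma unadjusted p = 0.00256 and adjusted p = 0.424). In deposited TPM it was -0.441 without Ad-shmGULL replicate 2, short of the 0.5 that the threshold of the study asks for. Scd1 was at 3234 TPM in control, 7262 TPM in knockdown and 4904 TPM in rescue mice (means), with a log2 fold change of 1.08 for knockdown minus control (limma adjusted p = 0.0679), which passed the threshold without Ad-shmGULL replicate 1 (limma adjusted p = 0.0260), with quantile normalization and at a mean TPM of at least 5.

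The TPM ratio of Fads1, Fads2, Elovl2 and Elovl5 to Elovl6 within the same mouse does not depend on scaling between libraries. Elovl6 was chosen with its rise known, so the differences largely restate its own and are given as values, without p. The Fads2 ratio was 8.47, 8.36, 9.20 and 8.21 in control mice, 3.40, 1.45, 3.15 and 3.41 in knockdown mice and 4.75, 4.18, 5.50 and 4.32 in rescue mice. The 3 groups did not overlap, with rescue mice between the others. The log2 ratio differed by -1.67 between knockdown and control, by -0.88 between rescue and control and by 0.79 between rescue and knockdown.

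The Fads1 ratio was 3.22, 3.37, 3.74 and 3.01 in control, 1.11, 0.570, 1.26 and 1.21 in knockdown and 1.93, 1.43, 2.201 and 1.69 in rescue mice. The Elovl2 ratio was 5.43, 6.60, 7.35 and 5.38 in control, 1.63, 0.717, 1.58 and 2.05 in knockdown and 3.42, 2.13, 3.50 and 2.69 in rescue mice. Neither ratio overlapped between any pair of groups. From control to knockdown the log2 ratio differed by -1.75 for Fads1 and -2.14 for Elovl2, from control to rescue by -0.89 and -1.09, and from knockdown to rescue by 0.86 and 1.05. A ratio does not show which of its 2 genes changed.

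The Elovl5 ratio was 3.58, 4.24, 4.36 and 2.61 in control, 1.25, 0.995, 2.24 and 1.86 in knockdown and 3.21, 1.75, 2.15 and 1.94 in rescue mice. Knockdown mice lay below all controls, and the rescue mice overlapped both groups. On the log2 scale knockdown minus control was -1.26, rescue minus control -0.72 and rescue minus knockdown 0.54.

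**Figure D3:**
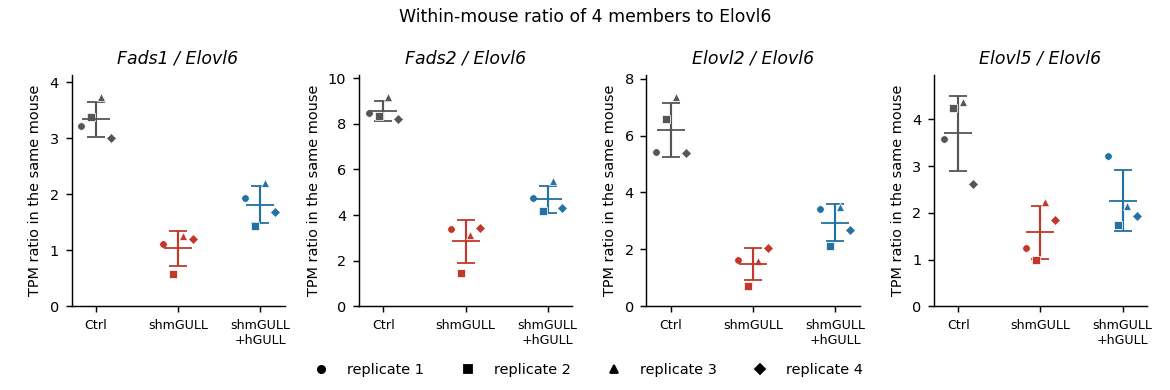
TPM of Fads1, Fads2, Elovl2 and Elovl5 divided by TPM of Elovl6 in the same mouse (linear axis from 0), with a symbol for each mouse and lines for the mean ± SD (n = 4) in Ad-Ctrl (grey), Ad-shmGULL (red) and Ad-shmGULL+hGULL (blue). The Fads2 ratio has a mean of 8.56 in Ad-Ctrl, 2.85 in Ad-shmGULL and 4.69 in Ad-shmGULL+hGULL, and Ad-shmGULL replicate 2 is lowest in every panel.

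Across the 12 mice, levels of several of the 9 genes varied together. Pearson correlations of log2(TPM + 1) were computed for all 36 pairs, and 10 had an adjusted permutation p under 0.05, each with r above 0. No share over pairs of all genes stands beside this count, so it is not read as particular to the 9 genes. Mice were permuted across the 3 groups, so a group difference that both genes of a pair share also lowers p. Values of r within groups were not tested. Fads1 and Fads2, neighbours on chromosome 19, had r = 0.891 (permutation p = 0.000320, adjusted p = 0.0115 over 36 pairs) and Spearman's rho = 0.874 (permutation p = 0.000400, adjusted p = 0.00720). Without the 2 mice farthest from the median of Fads1, r was 0.933. With each group centred on its own mean it was 0.814, and after median-of-ratios scaling it was 0.785. Fads1 and Elovl5, on different chromosomes, had r = 0.840 (permutation p = 0.00125, adjusted p = 0.0225) and rho = 0.902 (permutation p = 0.000110, adjusted p = 0.00396), with r = 0.767 without the 2 farthest mice, 0.824 within groups and 0.776 after median-of-ratios scaling. Fads2 and Fads3 had r = 0.746 (permutation p = 0.00386, adjusted p = 0.0346) and rho = 0.839 (permutation p = 0.00121, adjusted p = 0.0145), with r = 0.781 without the 2 farthest mice, 0.647 within groups and 0.547 after median-of-ratios scaling. Fads2 and Elovl5 had r = 0.721 and Fads3 and Elovl5 had r = 0.727 (adjusted permutation p = 0.0442 and 0.0356), with 0.516 and 0.511 within groups and 0.580 and 0.619 after that scaling. All of these pairs had a lower r after median-of-ratios scaling, and the lower values were not tested. The 5 other pairs fell further, with that scaling or without the 2 farthest mice. Fads1 and Fads6 had r = 0.760 (0.180 after median-of-ratios scaling), Fads6 and Elovl5 had r = 0.706 (0.0813 after it), and Fads2 and Elovl1 had r = 0.701 (0.314 after it, and 0.352 without the 2 farthest mice). Fads2 and Fads6 had r = 0.805 (permutation p = 0.00238, adjusted p = 0.0286) and rho = 0.755 (permutation p = 0.00658, adjusted p = 0.0338), with r = 0.905 without the 2 farthest mice but 0.435 within groups and 0.267 after median-of-ratios scaling. Fads3 and Scd2 had r = 0.799 (permutation p = 0.00481, adjusted p = 0.0346) and rho = 0.531 (permutation p = 0.0806, adjusted p = 0.193), with r = 0.835 within groups but 0.222 without the 2 farthest mice, so that this relation rests on those mice.

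**Figure D4:**
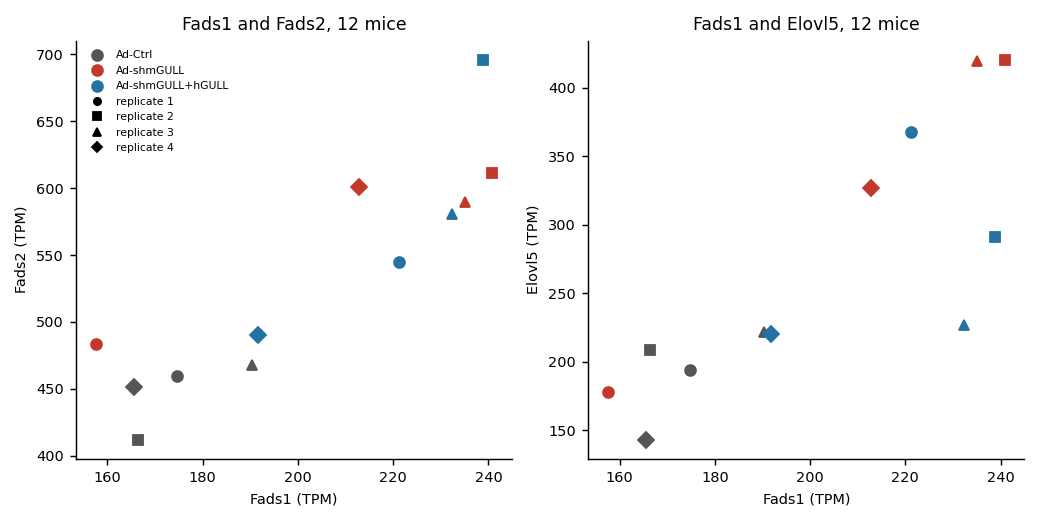
TPM of Fads2 (left) and of Elovl5 (right) against TPM of Fads1 in the 12 mice, coloured by group, with a symbol for the replicate number (linear axes that do not start at 0). Ad-shmGULL replicate 1 has the lowest Fads1 level, 158 TPM, and lies near the control mice in both panels.

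The genes whose pattern over the 12 mice was most like each member are given as a description, by Pearson's r of log2(TPM + 1). For Fads1 they were Nipsnap1 (0.952), the pseudogene Gm8566 (0.945) and Tmem184b (0.937), and those for Fads2 included Ckap2l (0.927) and Stip1 (0.926). For Elovl5 they were Sc5d (0.934), a sterol desaturase of cholesterol synthesis, with Kank1 (0.930) and Pter (0.922). Sc5d measured 151 TPM in control, 203 TPM in knockdown and 201 TPM in rescue mice (means), and after median-of-ratios scaling the 3 values for Elovl5 were 0.959, 0.687 and 0.890. Elovl2 was closest to Setd3 (0.948), Stra6l (0.937) and Papss2 (0.931), and Elovl1 to Ctr9 (0.963), Nono (0.959) and Mrps2 (0.955). Elovl3 had the least similar neighbours, Gm20426 (0.812), Ccdc162 (0.788) and Pon1 (0.777). Fads6 was closest to Ppp1r2-ps2 (0.949), Paox (0.927) and Vps9d1 (0.926), with 0.232, 0.439 and 0.810 after median-of-ratios scaling. Fads3 was closest to Gm10038 (0.967), Adamts5 (0.943) and Fpr1 (0.938), and Scd2 to Hpgds (0.969), Tbc1d1 (0.953) and the transferrin receptor Tfrc (0.950).

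Genes that work with these enzymes were counted by list, with limma calls at an adjusted p under 0.05, which in knockdown minus control were made for 3.23% of all genes. Of 6 partners in the elongation cycle, which reduce and dehydrate the lengthened chain, 0 were called in any comparison. Those with the largest difference after knockdown were the reductase Tecr (log2 fold change 0.40, adjusted p = 0.147) and Hsd17b12 (0.31, adjusted p = 0.304). At an unadjusted p under 0.05 there were 2 of these 6 in knockdown minus control (Tecr, higher, and Hacd3, lower at -0.25), against 20.2% of all genes. Of 5 tested genes that supply electrons to the desaturases, 2 rose with knockdown, Cyb5b from 296 ± 29.6 to 466 ± 89.0 TPM (log2 fold change 0.64, adjusted p = 0.0256) and Cyb5r3 from 279 ± 32.5 to 414 ± 71.9 TPM (0.55, adjusted p = 0.0373), and 0 fell. The same 2 had an unadjusted p under 0.05. Their rescue means were 407 and 384 TPM. Both calls were lost without a filter and with only the 2 groups compared. That of Cyb5b was also lost without Ad-Ctrl replicate 2, 3 or 4 or Ad-shmGULL replicate 2 (adjusted p 0.0520 to 0.0788), and that of Cyb5r3 without any of these, Ad-shmGULL replicate 4 or any rescue mouse (0.0530 to 0.107).

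Of 5 tested genes that activate fatty acids, Acsl3 rose with knockdown, from 13.2 ± 0.872 to 20.2 ± 2.53 TPM (log2 fold change 0.57, limma adjusted p = 0.0139). Of 7 genes of the peroxisomal step, which completes docosahexaenoic acid, Abcd2 rose, from 8.83 ± 2.74 to 24.1 ± 10.6 TPM (1.31, limma adjusted p = 0.0378). Of 11 tested genes of phospholipid remodelling, the phospholipase Pla2g6 rose, from 31.8 ± 4.98 to 45.2 ± 3.43 TPM (0.51, limma adjusted p = 0.0268), and it was also called in rescue minus control (0.59, limma adjusted p = 0.0381, or 0.109 with median-of-ratios scaling). Of 6 tested oxylipin enzymes 0 were called by limma, with 2 at an unadjusted p under 0.05 in knockdown minus control (Ltc4s and Ephx2), against 20.2% of all genes, the largest differences after knockdown being those of Ltc4s (0.77, limma adjusted p = 0.0745) and Ptgs1 (0.22, limma adjusted p = 0.501). The Acsl3 call held without any single mouse and was lost with only the 2 groups compared, while those of Abcd2 and Pla2g6 after knockdown were lost with that model and without a filter. The Abcd2 call was lost without Ad-Ctrl replicate 2, 3 or 4, Ad-shmGULL replicate 1, 2 or 4 or rescue replicate 2 or 4 (limma adjusted p 0.0550 to 0.107), and the knockdown call of Pla2g6 without Ad-Ctrl replicate 3 or 4 or Ad-shmGULL replicate 1 or 2 (0.0502 to 0.0785). The Pla2g6 call in rescue minus control was lost under the settings and mice named for Elovl6 (0.0532 to 0.142 without a mouse). At an unadjusted p under 0.05 in knockdown minus control there were 1 of 5 activating genes, 4 of 7 of the peroxisomal step and 7 of 11 of remodelling, against the same share. In deposited TPM no gene of these lists was called lower with knockdown or called in rescue minus knockdown. With median-of-ratios scaling, Lclat1 of the remodelling list was called lower with knockdown (-0.71, limma adjusted p = 0.0343, against -0.60 and 0.0591 in deposited TPM) and Lpcat3 higher (0.45, limma adjusted p = 0.0361, against 0.56 and 0.0610).

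Of 10 transcriptional regulators, Srebf1, which encodes SREBP-1, rose with knockdown from 96.5 ± 15.7 to 159 ± 16.8 TPM (log2 fold change 0.72, limma adjusted p = 0.0373), a call lost with median-of-ratios scaling (adjusted p = 0.0854). It was also lost with quantile normalization, without a filter, with only the 2 groups compared, and without Ad-Ctrl replicate 2, 3 or 4, Ad-shmGULL replicate 1, 2 or 4 or rescue replicate 2 (0.0542 to 0.104). Insig1, a sterol-sensing partner of SREBP processing, rose from 142 ± 6.80 to 224 ± 47.2 TPM (0.63, limma adjusted p = 0.0253), a call lost without a filter, with only the 2 groups compared, and without Ad-Ctrl replicate 2, 3 or 4 or Ad-shmGULL replicate 2 (0.0503 to 0.0717). Mlxipl, which encodes the carbohydrate-responsive factor ChREBP, was called in rescue minus control (0.53, limma adjusted p = 0.0441), or 0.35 above the median gene. At an unadjusted p under 0.05 there were 4 of 10 regulators in knockdown minus control, against 20.2% of all genes, with Srebf1, Insig1 and Mlxipl higher and Nr1h2 lower (-0.32). The list's median for knockdown minus control was 0.0024, against 0.09 over all genes. Of 5 tested neighbours of the Fads genes on chromosome 19, 0 were called in knockdown minus control, and Myrf was called in rescue minus control (0.53, limma adjusted p = 0.0414), a call that was lost, as was that of Mlxipl, under the settings and mice named for Elovl6 (without a mouse, 0.0532 to 0.145 for Myrf and 0.0532 to 0.146 for Mlxipl). The median of these neighbours was 0.34 in knockdown minus control. Of the remaining desaturases and elongases, Elovl4, Elovl7, Scd3, Scd4 and Degs2 were below a mean of 1 TPM, and Degs1 had a log2 fold change of 0.04 after knockdown.

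Markers of other liver cells were measured beside these results, and in bulk tissue fewer cells of a type and less RNA per cell cannot be told apart. The 6 endothelial markers, of which Stab2 was the most abundant, summed to 187, 108, 137 and 169 TPM in control mice, 172, 239, 176 and 200.3 TPM in knockdown mice and 174, 190.0, 177 and 209 TPM in rescue mice. In knockdown minus control 6 of 6 had a log2 fold change above 0, against 65.5% of all genes, and 6 of 6 after median-of-ratios scaling. An unadjusted limma p under 0.05 was found for 3 of 6, against 20.2% of all genes. Stab2 alone was called among the markers, in knockdown minus control (log2 fold change 0.54, limma adjusted p = 0.0476). That call was lost without a filter, with the protein-coding total, with only the 2 groups compared, and without any mouse other than Ad-Ctrl replicate 1 and Ad-shmGULL replicate 3 (0.0662 to 0.120). The 4 markers of proliferating cells, led by Mki67, summed to 32.6 ± 13.4 TPM in control, 46.0 ± 13.0 TPM in knockdown and 60.0 ± 13.6 TPM in rescue mice. In rescue minus control, 4 of 4 had an unadjusted limma p under 0.05, against 25.3% of all genes. The same 4 passed the study's threshold, against 7.49%, and 0 were called. Of the hepatocyte markers, 3 of 7 had an unadjusted limma p under 0.05 in knockdown minus control, against 20.2% of all genes. In knockdown replicate 2, the mouse highest for Elovl6 and Scd2, the endothelial, macrophage, lymphocyte, stellate, cholangiocyte and proliferating sums were also the highest of its group. Its neutrophil and hepatocyte sums were the lowest of its group, at 119 and 83539 TPM, and its adipocyte sum was not the highest. In knockdown replicate 1, without which Fads1 and Elovl5 passed the threshold, the macrophage, lymphocyte, endothelial and cholangiocyte sums were the lowest of its group. These were 408, 29.8, 172 and 56.9 TPM. Its stellate, neutrophil, adipocyte and proliferating sums were not the lowest. The part of these cell types in the differences of the 9 genes was not tested.

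The 8 Kupffer cell and macrophage markers, led by Cd5l, summed to 589 ± 153, 581 ± 129.8 and 576 ± 65.7 TPM in control, knockdown and rescue mice, and the 10 lymphocyte markers, led by Nkg7, to 50.4 ± 23.8, 47.3 ± 14.1 and 56.4 ± 6.65 TPM. The 5 neutrophil markers, led by S100a9, summed to 165 ± 65.5, 202 ± 75.9 and 109.5 ± 22.3 TPM, and the 7 stellate cell markers, led by Dcn, to 129 ± 42.2, 155 ± 19.0 and 145 ± 11.3 TPM. The 5 cholangiocyte markers, led by Spp1, summed to 83.5 ± 17.6, 92.4 ± 37.6 and 105 ± 15.1 TPM. The 5 adipocyte markers, led by Cidec, summed to 24.7 ± 14.8, 38.7 ± 12.5 and 41.4 ± 9.49 TPM, with Lep listed at 0 in every mouse. Adipoq was at most 0.215 TPM and Plin1 at most 0.138 TPM in any mouse, so these sums rest on Cidec and Fabp4.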

How the data were processed

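The 12 liver RNA-Seq samples fall into 3 groups of 4 mice by their titles. Per the submitters' processing notes and the study's methods, strand-specific reads were trimmed with fastp 0.23.2, checked with FastQC 0.11.8, aligned with HISAT2 2.2.1.0 to GRCm38.p6 and counted with featureCounts of Subread 2.0. The authors deposited TPM values, which sum to 1000000 in each mouse, so depth is unknown and no counting interval is given.

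A limma 3.58.1 model in R 4.3.3 was fitted to log2(TPM + 1) of genes averaging 1 TPM or more, with the 3 groups in 1 model, empirical Bayes variances with a trend and Benjamini-Hochberg adjustment over 16378 genes. The fit was tested on simulated data, but no outcome of that is given here or used as support. Ratios between genes are given as values, without the exact permutation tests planned for them, since the genes were chosen with their differences known. Correlations used permutation tests, with mice permuted across the groups. The members, the lists of pathway genes and cell type markers and the tests were chosen with earlier results of these data known. Genes named from each list are those with an adjusted p under 0.05, or else the 2 differing most between knockdown and control, and genes among the 3 most correlated with each member.

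Alternatives were a filter at 5 TPM or none, a pseudocount of 0.1, median-of-ratios scaling (each mouse divided by the median of its ratios to the geometric mean of each gene), quantile normalization, only the 2 groups compared, the replicate number as a block, and leaving out each mouse. Rescaling to the protein-coding total, median-of-ratios scaling of correlations, adjustment of ratios within each comparison and the ratios between members were chosen after seeing the data. Figures were drawn in Python 3.11.15 with matplotlib 3.10.9.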

Additional observations from a re-analysis of the deposited data

Results flagged for a closer look

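In 4 of 33 groups of 4 mice, made of the 9 genes, Elovl6 and Scd1 in 3 groups each, the highest or lowest mouse stood far from the others for its group's range. Chance gives this in about 1 in 20 groups. Fads2 was at 483 TPM in Ad-shmGULL replicate 1, with the others at 590 to 611 TPM. Scd2 was at 22.6 TPM in Ad-shmGULL replicate 2, with the others at 6.12 to 8.25 TPM. Elovl6 was at 422 TPM in Ad-shmGULL replicate 2, with the others at 142 to 187 TPM, and at 167 TPM in Ad-shmGULL+hGULL replicate 2, with the others at 106 to 115 TPM.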

How the results depend on the processing

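Each group held 4 mice, and the unit keeps no depth. In knockdown minus control the groups overlapped in all but 3 of the 9 genes. Whether more mice or known depth would change the calls was not tested. Over 20 alternative settings the 27 log2 fold changes kept their direction, apart from those given here. The cause of each change was not tested.

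Scaling turned the small differences. With median-of-ratios scaling Elovl1 was at -0.0333 in knockdown minus control, Fads1 and Fads2 were at -0.0170 and -0.0835 in rescue minus knockdown, and Fads6 and Elovl2 were at -0.0558 and -0.0621 in rescue minus control. With quantile normalization Fads2 was at -0.0284 in rescue minus knockdown and Fads6 at -0.0136 in rescue minus control. Rescaling to the protein-coding total, chosen after seeing the data, put Fads2 at -0.0191 in rescue minus knockdown.

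Leaving out each mouse in turn gave, in knockdown minus control, -0.0169 to 0.15 for Elovl1 and -0.154 to 0.099 for Elovl3. In rescue minus knockdown it gave -0.0574 to 0.145 for Fads1, -0.0828 to 0.0856 for Fads2, -0.027 to 0.0173 for Fads6 and -0.349 to 0.227 for Scd2. The members called then numbered 0 to 2 in knockdown minus control, with 2 (Fads1 and Elovl5) without Ad-shmGULL replicate 1, and 0 to 1 in rescue minus control, with Fads1 called without the same mouse. The members past the study's threshold numbered 1 to 2 in knockdown minus control and 0 to 1 in each other comparison, the higher count again without that mouse.

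With a pseudocount of 0.1, 2 members (Fads3 and Elovl5) passed the study's threshold in knockdown minus control. With only the 2 groups compared, 1 member was called (Fads1) and 1 passed the study's threshold (Elovl5) in rescue minus control, where 10.3% of all genes were called. Fads3 is below a mean of 5 TPM and has no value at that filter. The 12 log2 ratios to Elovl6 kept their direction with a pseudocount of 1 in both terms. Their planned permutation tests, and an adjustment within each comparison chosen after seeing the data, are not given as evidence, since the difference in Elovl6 itself was known.

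Over all genes, the 529 calls of knockdown minus control became 683 with median-of-ratios scaling, 236 without a filter, 33 with only these groups compared and 165 to 1057 without a mouse. The 352 calls of rescue minus control became 11 with either scaling, 17 with the protein-coding total, 9 without a filter, 568 at a mean TPM of at least 5, 1693 with only these groups compared and 3 to 1068 without a mouse. Rescue minus knockdown gave 0 calls, or up to 2 without a mouse.

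The labels give same-numbered mice no more than a shared number. Their deviations from the group means correlated from -0.24 to 0.15 over the tested genes. These values were not set against mice of different numbers, so they cannot show whether same-numbered mice shared a batch. With the replicate number as a block, 0 members were called in each comparison, as without it, and 1, 0 and 0 passed the study's threshold, while the calls over all genes were 418, 0 and 71. The block ended the calls of Cyb5b, Cyb5r3, Pla2g6 and Stab2 in knockdown minus control and of Elovl6, Pla2g6, Mlxipl and Myrf in rescue minus control.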
